A study of Mus musculus with 9 samples.

Results

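The 10 genes described here govern how microglial cells can use arginine, along the nitric oxide route or along the arginase and polyamine route. They are Slc7a2, Ass1, Asl, Nos2, Gch1, Arg1, Arg2, Odc1, Srm and Sat1, taken by name from a table of 54532 genes, in which all 10 were found. The RNA came from BV2, a mouse microglial cell line immortalized with oncogenes, and each of 3 groups had 3 libraries. Control cells (Ctrl, treatment normal) received complete medium with 10% serum. Cells under oxygen glucose deprivation (OGD) received medium low in glucose with 4% serum and were held at 4% oxygen, so glucose, oxygen and serum all differed from control. The cells labelled OGD_A_485, written OGD + A-485 here, had OGD together with A-485, which inhibits the acetyltransferase P300. A dose of 50 μM for 24 h was used in the experiments that came before sequencing and is assumed for these libraries. No library had A-485 without OGD, and the labels do not say whether libraries of a group came from separate cultures, so p-values measure the spread between these libraries.

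Arginine enters macrophages through cationic amino acid carriers, and competing enzymes then act on it. Inducible nitric oxide synthase uses it, with oxygen and tetrahydrobiopterin, to form nitric oxide and citrulline, and citrulline can be rebuilt into arginine. Arginase splits it into urea and ornithine, from which polyamines are made. In mouse macrophages and microglia, Nos2 is a usual marker of the M1 state and Arg1 of the M2 state.

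Reads on genes, recovered from the deposited FPKM (fragments per kilobase of gene, scaled to depth), ranged between 12593250 and 16091038 per library. For a gene of 1 kb, 1 read was worth 0.0618 to 0.0786 FPKM. All 10 markers of macrophages and microglia had a mean of at least 1 FPKM, and their sum was 559 to 578 FPKM in control, 670.1 to 702 with OGD and 1244 to 1285 with A-485. The markers did not all move alike with OGD. Spi1 was lower (mean 38.5 against 43.9 FPKM in control), Aif1 and Tyrobp overlapped control, and the others were higher. With A-485 each of the 10 was higher than with OGD alone, without overlap. The part of these shifts in the results was not tested. Of 4 markers of homeostatic microglia, 2 reached that mean, among them Tmem119 at 1.35 FPKM, whereas P2ry12 (0.105) and Sall1 (0.00130) were near 0. No marker of astrocytes, neurons or fibroblasts reached a mean of 1 FPKM, and of the oligodendrocyte markers Cnp alone did. In bulk RNA, fewer cells of a type and less RNA per cell cannot be told apart.

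RefSeq promoter windows (GRCm38.p6, 250 bases before to 50 after the start) were matched for 4 of the 10 genes, Ass1, Gch1, Odc1 and Sat1. The windows of Ass1, Gch1 and Odc1 are printed because OGD raised the first pair and A-485 lowered Odc1. They lie at chr2:31470020-31470319 on the plus strand, chr14:47189364-47189663 on the minus strand and chr12:17544623-17544922 on the plus strand, and read 5′ to 3′ along the gene. Capitals mark matches on either strand to CACGTG (the E-box), TGACG (the start of the cAMP response element), CCAAT and TATAAA.
Ass1: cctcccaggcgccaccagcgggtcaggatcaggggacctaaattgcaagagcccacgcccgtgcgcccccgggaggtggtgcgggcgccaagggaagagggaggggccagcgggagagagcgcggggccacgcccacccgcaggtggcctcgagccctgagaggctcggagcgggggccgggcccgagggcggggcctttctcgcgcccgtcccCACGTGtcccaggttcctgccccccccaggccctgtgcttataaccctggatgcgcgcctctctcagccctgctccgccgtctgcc
Gch1: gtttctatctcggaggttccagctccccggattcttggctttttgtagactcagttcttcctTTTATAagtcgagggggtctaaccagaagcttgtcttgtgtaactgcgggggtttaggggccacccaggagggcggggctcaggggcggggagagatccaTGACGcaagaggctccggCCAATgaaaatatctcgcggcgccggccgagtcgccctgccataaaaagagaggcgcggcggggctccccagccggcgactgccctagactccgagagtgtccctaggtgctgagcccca
Odc1: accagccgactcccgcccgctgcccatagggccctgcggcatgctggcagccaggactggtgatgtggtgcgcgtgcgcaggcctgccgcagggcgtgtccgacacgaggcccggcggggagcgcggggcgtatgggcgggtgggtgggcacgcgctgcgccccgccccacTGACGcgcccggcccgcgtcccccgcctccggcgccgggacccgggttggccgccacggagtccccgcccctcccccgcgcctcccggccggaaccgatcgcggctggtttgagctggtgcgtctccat
Ass1 held the E-box, a site for Myc and related factors, with its first base at -36 from the start, and 7.15% of the 32817 windows in the table held one. That match contains the shorter hypoxia core ACGTG on both strands, a motif that 19.6% of all windows held and the windows of Gch1, Odc1 and Sat1 did not. Gch1 held TGACG at -88 and CCAAT at -70, motifs found in 20.8% and 37.4% of all windows. A match to TATAAA, found in 13.6% of windows, lay at -188. Odc1 held TGACG at -79. The GC box GGGCGG, left in lower case, was in all 4 windows, at 1 place in Ass1, 2 in Gch1, 4 in Odc1 and 2 in Sat1, while 35.6% of all windows held at least 1. Positions count from the RefSeq start of each window. For Ass1 and Odc1 that start lies inside the gene as placed below, and for Gch1 the starts coincide. The matches at -36 in Ass1 and -79 in Odc1 are therefore not upstream of the gene start given below. These matches describe letters, and binding was not measured.

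The levels of the 10 genes lay far apart. Per gene length, in FPKM, the order in control was Odc1, Srm, Nos2, Sat1, Asl, Slc7a2, Gch1, Arg1, Ass1 and Arg2, from a mean of 584 down to 0.115. Neighbours in that order were separated in every library except Arg1 and Ass1, whose ranges overlapped. With OGD the order became Odc1, Nos2, Srm, Sat1, Asl, Arg1, Gch1, Slc7a2, Ass1 and Arg2, and with A-485 it became Nos2, Odc1, Srm, Arg1, Sat1, Asl, Gch1, Slc7a2, Ass1 and Arg2. No neighbours overlapped in those orders. Among all genes of the table, Arg1 stood at rank 13381 in control, 5158 with OGD and 396 with A-485.

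**Figure D1:**
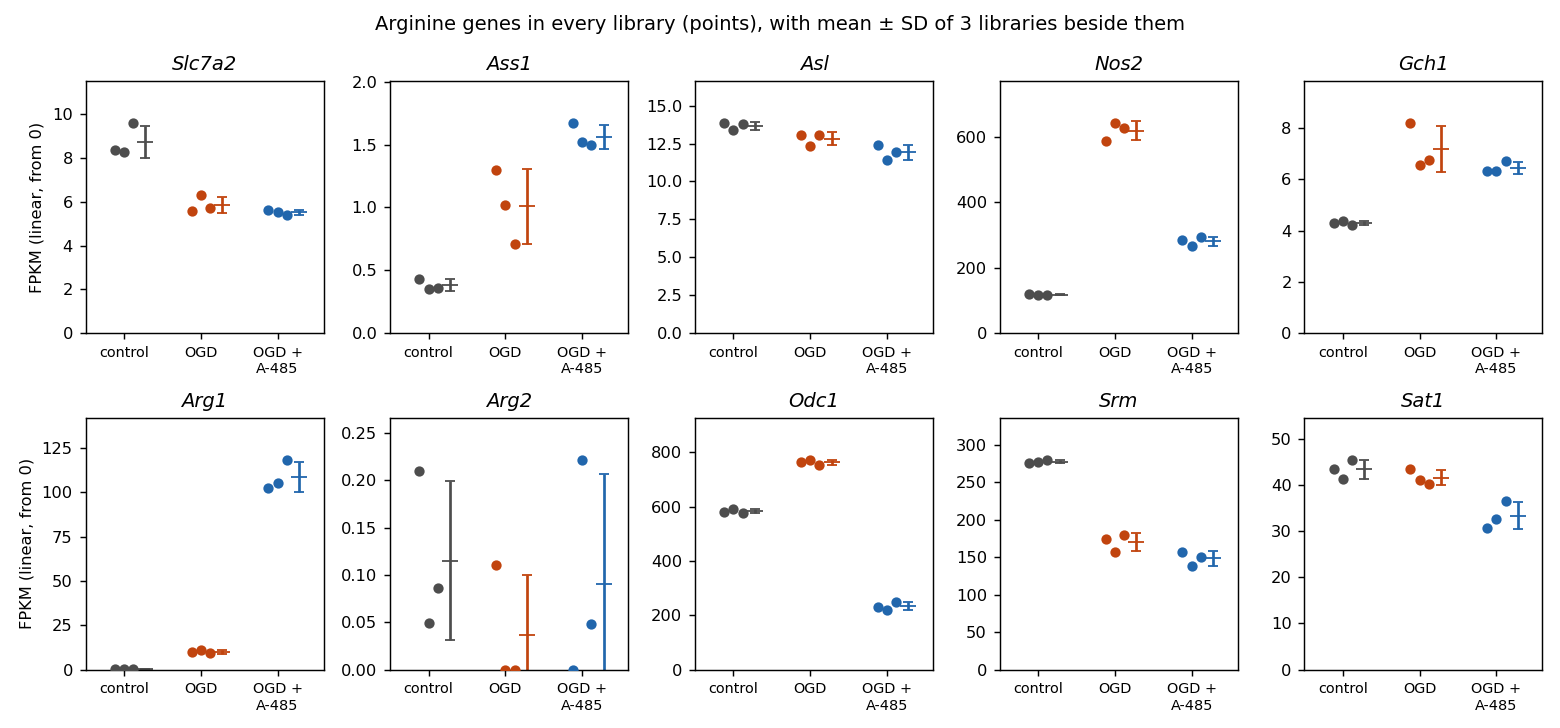
FPKM of the 10 genes in each library (points, linear axes from 0), with the mean and SD of the 3 libraries of each group beside them. Nos2 peaks in OGD at a mean of 619, Arg1 reaches a mean of 109 in OGD + A-485, and Odc1 is lowest there at 233.

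Differences were tested with limma on log2(FPKM + 0.1), a scale that understates the changes of low genes. Genes with an unadjusted p-value below 0.01 and a log2 fold change beyond 0.5 in either direction are said to be called, thresholds that follow the methods of the study. Between OGD and control, 6 of 9 genes tested were called, 4 higher and 2 lower, where 21.0% of all 16123 genes tested were called (11.2% higher and 9.81% lower). The groups did not overlap for 8 of the 9, against 55.4% of all genes. Between OGD + A-485 and OGD, 3 of 9 were called, 1 higher and 2 lower, near the background of 25.7% (12.2% higher and 13.4% lower), and 6 did not overlap, against 56.8%. Between OGD + A-485 and control, 7 of 9 were called, 4 higher and 3 lower, against 33.7% (17.0% higher and 16.6% lower), and 9 did not overlap, against 63.8%. These comparisons share libraries. Arg2, with a mean of 0.0806 FPKM, fell below the minimum of 0.2 for the test.

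Nos2 (ENSMUSG00000020826) encodes inducible nitric oxide synthase and lies on chromosome 11, from 78920787 to 78960254 on the plus strand (GRCm38, as for all positions here). Nos2 measured 119.6, 117 and 115 FPKM in the control libraries, 587, 643 and 627 in those with OGD alone and 284, 266 and 293 in those with A-485. Libraries with OGD alone were highest, those with A-485 lay between them and control, and no groups overlapped. The libraries held 7051 to 38917 reads of the gene. OGD raised the mean 5.27-fold (log2 fold change 2.40, standard error 0.05, adjusted p = 3.66e-08, limma). With A-485 the mean was 2.20-fold lower than with OGD alone (log2 fold change -1.14, standard error 0.05, adjusted p = 4.61e-07, limma) and 2.39-fold above control (log2 fold change 1.26, adjusted p = 1.48e-07, limma).

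Gch1 (ENSMUSG00000037580) encodes GTP cyclohydrolase 1, the first and rate-limiting enzyme in making tetrahydrobiopterin, the cofactor of nitric oxide synthases. It lies on chromosome 14, from 47153895 to 47189413 on the minus strand. Gch1 measured 4.31, 4.38 and 4.21 FPKM in the control libraries, 8.19, 6.56 and 6.74 in those with OGD alone and 6.31, 6.33 and 6.70 in those with A-485. Every library with OGD exceeded every control library, whether A-485 was present or not, and the groups with OGD overlapped each other. OGD raised the mean 1.67-fold (log2 fold change 0.72, standard error 0.08, adjusted p = 0.000149, limma). With A-485 the difference from OGD was -0.14 on the log2 scale, with a 95% interval of -0.34 to 0.048 and no call (adjusted p = 0.192, limma). The pseudogene Gm49134 overlaps Gch1 on the opposite strand at 0.239 to 1.52 FPKM, and whether the counting used strand is not stated. Another pseudogene, Gm18811, overlaps it on the same strand at 0 to 0.676 FPKM.

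The other genes of the cofactor moved in both directions. Of 7 listed, 6 were tested, of which OGD raised 1 and lowered 2 (against 21.0% of all genes called) and A-485 raised 1 and lowered 3 (66.7% against 25.7%). Gchfr, which encodes the regulator through which tetrahydrobiopterin inhibits GTP cyclohydrolase 1, measured 9.63, 10.01 and 12.2 FPKM in the control libraries, 15.6, 14.2 and 14.3 in those with OGD alone and 1.27, 0.491 and 0.968 in those with A-485. The libraries with A-485 held 12, 5 and 9 reads and lay below all others. The log2 fold change with A-485 was -3.95 (standard error 0.26, adjusted p = 3.9e-06, limma). That with OGD was 0.47 and not called (adjusted p = 0.178, limma), although control and OGD libraries did not overlap. Its standard error was also 0.26, as the fit shares 1 spread among the 3 groups, including the libraries with A-485 and few reads. The ratio of Gch1 to Gchfr FPKM had means of 0.410 ± 0.0559 for control, 0.486 ± 0.0341 for OGD and 8.26 ± 4.14 for OGD + A-485 (SD, n = 3).

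Pts, the synthase of the following step, fell with A-485 from 4.70 ± 0.841 to 3.06 ± 0.156 FPKM (SD, n = 3 here and in the next values). Spr, sepiapterin reductase, fell with OGD from 13.4 ± 1.04 to 8.98 ± 0.852 FPKM and rose with A-485 to 13.5 ± 2.26. Both directions thus occurred within the pathway under A-485. Pcbd2, a dehydratase of the recycling step, rose with OGD from 24.7 ± 4.33 to 36.8 ± 2.34 FPKM and was not called with A-485 (34.2 ± 1.38).

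Of 8 other genes tied to nitric oxide, 5 were tested, of which OGD raised 2 and A-485 raised 1, and neither lowered any. The single call with A-485 is a share below the 25.7% of all genes, and that with OGD stands against 21.0%. Nos1, the neuronal synthase, rose with OGD from 0.597 ± 0.0263 to 1.29 ± 0.142 FPKM (SD, n = 3), with 1.28 ± 0.0647 and no call under A-485. Nos3, the endothelial synthase, had a mean of 0.00735 FPKM, so Nos2 had the highest level per gene length of the synthases in each group. Ddah1, which breaks down the synthase inhibitor asymmetric dimethylarginine, measured 0.207, 0.247 and 0.171 FPKM in the control libraries, 0.789, 1.23 and 0.643 in those with OGD alone and 5.34, 5.69 and 5.22 in those with A-485. The groups did not overlap, and both steps were called higher, on 11 to 358 reads per library (log2 fold changes 1.65 and 2.52, adjusted p = 0.00031 and 1.93e-05, limma). Gucy1a1 and Gucy1b1, the subunits of the nitric oxide receptor, had no reads in 8 of 9 libraries.

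Arg1 (ENSMUSG00000019987) encodes the cytosolic arginase and lies on chromosome 10, from 24915221 to 24927484 on the minus strand. Arg1 measured 0.672, 0.409 and 0.305 FPKM in the control libraries, 9.80, 11.4 and 9.19 in those with OGD alone and 103, 105 and 118 in those with A-485. Control libraries were lowest and those with A-485 highest, with no overlap at either step. Its reads were 20, 13 and 11 in control, 278, 330 and 288 with OGD alone and 3337, 3697 and 3798 with A-485. OGD raised the mean 21.9-fold (log2 fold change 4.23, standard error 0.20, adjusted p = 1.46e-06, limma), at rank 3 of all rises by log2 fold change. Control levels were low enough that the size depends on the pseudocount, and with a pseudocount of 1 the log2 fold change was 2.93. A-485 raised the mean a further 10.7-fold (log2 fold change 3.41, standard error 0.20, adjusted p = 2.22e-06, limma), at rank 100 of the rises. Against control, OGD + A-485 was 235-fold higher (log2 fold change 7.64, adjusted p = 2.18e-08, limma).

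Arg2 (ENSMUSG00000021125), the mitochondrial arginase, lies on chromosome 12, from 79130777 to 79156301 on the plus strand. It had 4, 1 and 2 reads in control, 2, 0 and 0 with OGD alone and 0, 5 and 1 with A-485, and no difference was detectable at this depth. It overlaps Vti1b on the opposite strand, at 37.8 to 68.1 FPKM, so these few reads may belong to either gene. Arg1 made up 81.1 ± 7.11 percent of arginase FPKM in control, 99.6 ± 0.641 percent with OGD alone and 99.9 ± 0.112 percent with A-485 (SD, n = 3).

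RNA for the routes was then compared within each library by the ratio of Nos2 FPKM to summed Arg1 and Arg2 FPKM. Enzyme activity and products were not measured in these libraries. In control the arginase sum rested on few reads, 11 to 20 for Arg1 and 1 to 4 for Arg2. The ratio was 136, 256 and 295 for control, 59.3, 56.5 and 68.2 for OGD and 2.77, 2.53 and 2.48 for OGD + A-485. Nos2 exceeded the arginases in all 9 libraries, and the groups did not overlap. The ratio was lower with OGD than in control even though Nos2 rose, as Arg1 rose by more. On the log2 scale the means were 7.76 ± 0.597, 5.93 ± 0.141 and 1.37 ± 0.0867 (SD, n = 3), and no test was made of this ratio.

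**Figure D2:**
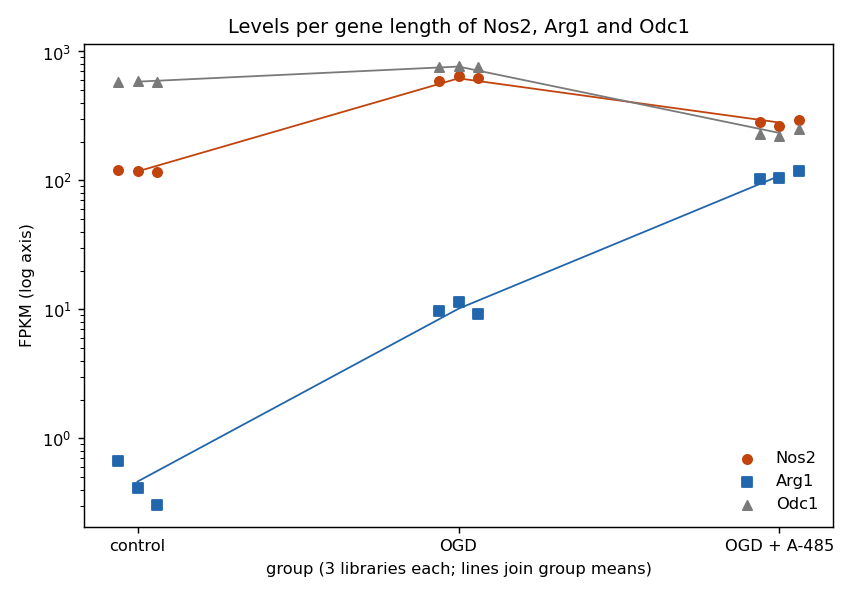
FPKM on a log axis of Nos2 (circles), Arg1 (squares) and Odc1 (triangles) in each library of the 3 groups, with lines joining group means. Arg1 climbs at both steps, Nos2 climbs with OGD and is lower with A-485 (mean 281), and Odc1 is lowest with A-485.

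Odc1 (ENSMUSG00000011179) encodes ornithine decarboxylase, the rate-limiting enzyme that makes putrescine, and is a classic target of Myc. It lies on chromosome 12, from 17544794 to 17551505 on the plus strand, and its promoter window is printed above. Odc1 measured 582, 592 and 577 FPKM in the control libraries, 764, 773 and 755 in those with OGD alone and 229, 221 and 249.7 in those with A-485. Libraries with OGD alone were highest and those with A-485 lowest, with no overlap. With OGD the mean was 1.31-fold higher, beyond the spread between libraries but under the size set for a call (log2 fold change 0.39, standard error 0.05, adjusted p = 0.000301, limma). With A-485 it was 3.27-fold lower than with OGD alone (log2 fold change -1.71, standard error 0.05, adjusted p = 5.98e-08, limma) and 2.50-fold lower than in control (log2 fold change -1.32, adjusted p = 1.2e-07, limma). Under A-485, Arg1 and Odc1, which act in sequence on the way to polyamines, therefore changed in opposite directions.

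Srm (ENSMUSG00000006442) encodes spermidine synthase and lies on chromosome 4, from 148591503 to 148594993 on the plus strand. Srm measured 275, 277 and 279.9 FPKM in the control libraries, 174, 158 and 179.8 in those with OGD alone and 158, 138 and 150.0 in those with A-485. All libraries with OGD lay below control, and the highest with A-485 was just under the lowest with OGD alone. OGD lowered the mean 1.63-fold (log2 fold change -0.71, standard error 0.06, adjusted p = 3.03e-05, limma). With A-485 the further difference was -0.20, with a 95% interval of -0.34 to -0.06 and no call (adjusted p = 0.0262, limma).

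Sat1 (ENSMUSG00000025283) encodes spermidine/spermine acetyltransferase 1, which marks polyamines for export or breakdown, and lies on chromosome X, from 155213132 to 155216449 on the minus strand. Sat1 measured 43.3, 41.3 and 45.4 FPKM in the control libraries, 43.4, 41.0 and 40.2 in those with OGD alone and 30.7, 32.7 and 36.5 in those with A-485. Control and OGD overlapped, and the libraries with A-485 lay below both. With OGD the difference was -0.06 on the log2 scale, with a 95% interval of -0.21 to 0.09 (adjusted p = 0.499, limma). With A-485 it was -0.32, beyond the spread between libraries but under the size set for a call (standard error 0.07, adjusted p = 0.00349, limma).

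Of 19 other polyamine genes, 17 were tested, of which OGD raised 3 and lowered 3 and A-485 raised 2 and lowered 4, a share of 35.3% at each step against 21.0% and 25.7% of all genes. Antizymes bind ornithine decarboxylase and send it to the proteasome, and antizyme inhibitors free it. With OGD the antizyme Oaz1 fell from 117 ± 6.33 to 63.0 ± 2.84 FPKM (SD, n = 3 here and in the next values). The inhibitors Azin1 and Azin2 rose, from 40.7 ± 0.822 to 59.1 ± 3.14 and from 1.29 ± 0.266 to 4.12 ± 0.476 FPKM. Under A-485, Azin2 fell to 2.25 ± 0.126 and the antizyme Oaz2 from 10.8 ± 1.01 to 5.86 ± 0.923 FPKM, while Oaz1 (69.9 ± 4.75) and Azin1 (52.1 ± 1.70) were not called.

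Amd1, the decarboxylase that supplies aminopropyl groups for spermidine, fell with OGD from 35.4 ± 2.45 to 23.1 ± 0.838 FPKM and rose with A-485 to 51.7 ± 2.95 (log2 fold changes -0.61 and 1.16, adjusted p = 6.07e-05 and 1.14e-06, limma). Reads may be split with its near-identical copy Amd2, whose group means were 1.06, 0.800 and 1.12 FPKM. Under A-485 the genes for the enzymes that feed spermidine synthesis thus differed, Odc1 being lower and Amd1 higher. Smox, spermine oxidase, rose with OGD from 47.0 ± 2.53 to 113 ± 8.81 FPKM and fell with A-485 to 72.5 ± 4.40. Paox, the oxidase of acetylated polyamines, fell with A-485 from 4.12 ± 0.299 to 2.47 ± 0.302 FPKM. Mtap, which salvages a by-product of polyamine synthesis, fell with OGD from 53.9 ± 1.15 to 37.7 ± 2.42 FPKM. These 3 handle breakdown and salvage. Dohh, which completes the spermidine-derived hypusine of a translation factor, rose with A-485 from 6.16 ± 0.350 to 10.7 ± 2.31 FPKM (SD, n = 3 for all).

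Slc7a2 (ENSMUSG00000031596) encodes a cationic amino acid transporter known to supply inducible nitric oxide synthase in macrophages, and lies on chromosome 8, from 40862396 to 40922308 on the plus strand. Slc7a2 measured 8.36, 8.30 and 9.61 FPKM in the control libraries, 5.58, 6.30 and 5.70 in those with OGD alone and 5.63, 5.52 and 5.41 in those with A-485. Control libraries were highest, and the groups with OGD overlapped each other. OGD lowered the mean 1.49-fold (log2 fold change -0.57, standard error 0.07, adjusted p = 0.000253, limma), so this transporter fell where Nos2 rose. With A-485 the difference was -0.08, with a 95% interval of -0.25 to 0.08 (adjusted p = 0.379, limma).

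Of 9 other carriers of arginine or ornithine, 7 were tested, of which OGD lowered 2 and raised 0 (28.6%, near the 21.0% of all genes), and A-485 raised 3 and lowered 1 (57.1% against 25.7%). Slc7a1, the constitutive arginine carrier, had 22.9 ± 0.532, 17.0 ± 0.537 and 24.6 ± 0.722 FPKM in the 3 groups (SD, n = 3 here and in the next values), and the rise with A-485 was called (log2 fold change 0.53, adjusted p = 8.72e-06, limma). Slc7a7, a light chain of an exchanger that moves arginine out of cells, fell with OGD from 1.18 ± 0.133 to 0.702 ± 0.0796 FPKM and rose with A-485 to 3.70 ± 0.0451. Its partner Slc3a2, a heavy chain shared by several carriers, rose with A-485 from 53.0 ± 2.03 to 77.3 ± 4.97 FPKM. All 3 genes that A-485 raised encode carriers of the cell surface or chains of such carriers. Slc38a9, a lysosomal arginine sensor, fell with A-485 from 2.16 ± 0.247 to 1.15 ± 0.103 FPKM, and Slc25a15, the mitochondrial ornithine carrier, fell with OGD from 4.55 ± 0.184 to 3.08 ± 0.218.

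Ass1 (ENSMUSG00000076441), argininosuccinate synthase, performs the rate-limiting step that rebuilds arginine from citrulline, and lies on chromosome 2, from 31470207 to 31520672 on the plus strand. Ass1 measured 0.434, 0.349 and 0.358 FPKM in the control libraries, 1.30, 1.02 and 0.707 in those with OGD alone and 1.67, 1.52 and 1.49 in those with A-485. Control libraries were lowest and those with A-485 highest, without overlap, on 12 to 59 reads per library. OGD raised the mean 2.65-fold (log2 fold change 1.18, standard error 0.22, adjusted p = 0.00197, limma). With A-485 the further difference of 0.62 was not called (unadjusted p = 0.0191, adjusted p = 0.0399, limma), but without replicate 1 of OGD it was 0.81 and called.

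Asl (ENSMUSG00000025533), argininosuccinate lyase, releases arginine in the following step and lies on chromosome 5, from 130011258 to 130029247 on the minus strand. Asl measured 13.9, 13.4 and 13.8 FPKM in the control libraries, 13.1, 12.3 and 13.0 in those with OGD alone and 12.4, 11.4 and 11.9 in those with A-485. The groups lay close together, with control highest and the groups with OGD overlapping, and neither step was called. The difference with OGD was -0.09 on the log2 scale (95% interval -0.20 to 0.011, adjusted p = 0.134, limma), and that with A-485 was -0.10 (adjusted p = 0.0906, limma).

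**Figure D3:**
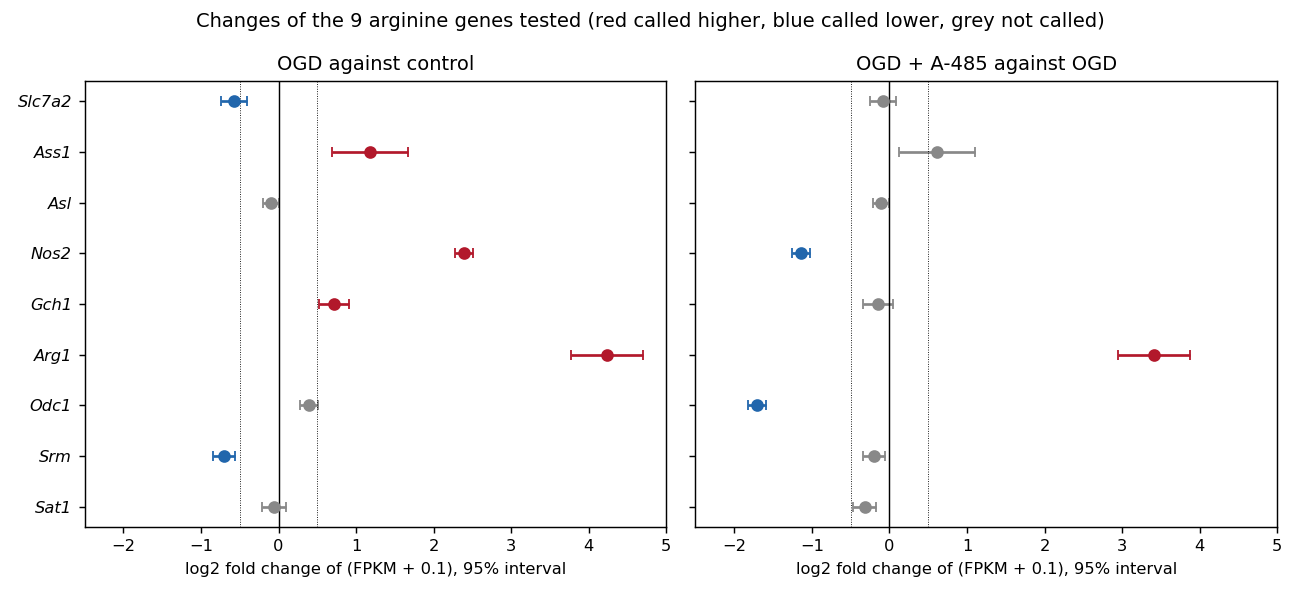
Log2 fold changes with 95% intervals (limma) of the 9 genes tested, for OGD against control and OGD + A-485 against OGD, with dotted lines at the size of 0.5 set for a call. Arg1 lies far to the right in both panels, at 4.23 and 3.41, while Nos2 changes side from 2.40 to -1.14.

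Of 11 genes listed for the urea cycle and for ornithine, proline and creatine, 6 were tested, of which OGD raised 1 and lowered 2 (against 21.0% of all genes called) and A-485 lowered 2 and raised 0 (33.3% against 25.7%). The first enzymes of the hepatic urea cycle were at or near 0, with Otc listed at 0 in every library and means of 0.00247 and 0.00516 FPKM for Cps1 and Nags. Aldh18a1, which makes the shared precursor of ornithine and proline, had 56.7 ± 1.28 and 56.7 ± 1.19 FPKM in control and OGD and fell with A-485 to 29.8 ± 2.03 (SD, n = 3 here and in the next values). Pycr1, a proline-forming reductase, rose with OGD from 2.46 ± 0.210 to 4.04 ± 0.596 FPKM and fell with A-485 to 2.44 ± 0.318. Pycrl, of the same enzyme family, fell with OGD (log2 fold change -0.93, adjusted p = 0.000135, limma) and was not called with A-485.

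Over all 54 further genes of arginine, nitric oxide and polyamine metabolism, 41 were tested. OGD raised 7 and lowered 9, which is 39.0% against 21.0% of all genes, with a median log2 fold change of -0.20 against 0.01. A-485 raised 7 and lowered 10, which is 41.5% against 25.7%, with a median of 0.03 against 0.01.

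**Figure D4:**
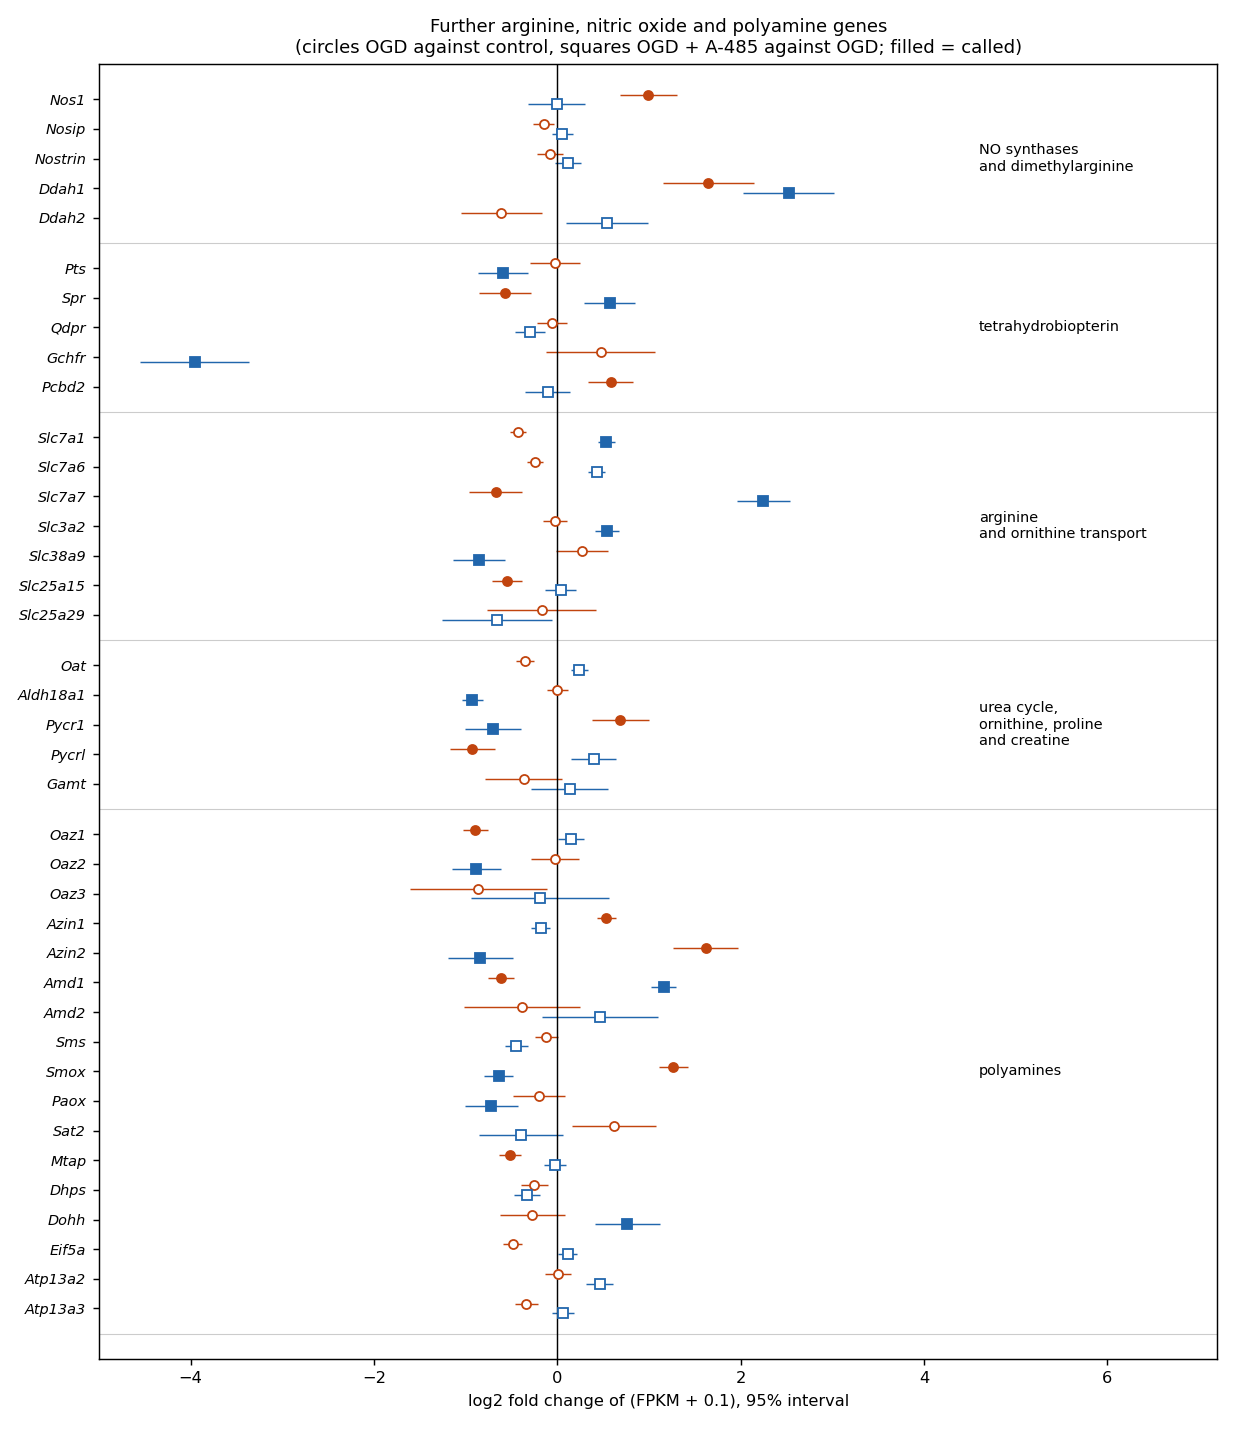
Log2 fold changes with 95% intervals (limma) of 39 of the 41 further genes tested, grouped by role, for OGD against control (circles) and OGD + A-485 against OGD (squares), filled where called. Gchfr is the lowest point, at -3.95 with A-485, and Ddah1 and Slc7a7 are the highest with A-485, at 2.52 and 2.25.

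Changes with A-485 were set beside those of the 50 nearest genes on the chromosome that reached a mean of 1 FPKM. The median of these neighbours was 0.08 for Nos2, 0.05 for Arg1 and 0.0031 for Odc1, whose own changes were -1.14, 3.41 and -1.71. For Gch1 the median was 0.49, with 42 of 50 higher, and its own change minus that median was -0.63. For Srm the median was -0.54, with 7 of 50 higher, and the difference was 0.34. Among other genes named, the median was 0.52 for Slc7a7, -0.41 for Slc38a9, -0.38 for Aldh18a1 and -0.41 for Oaz2. The part of these surroundings in the results was not tested.

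**Figure D5:**
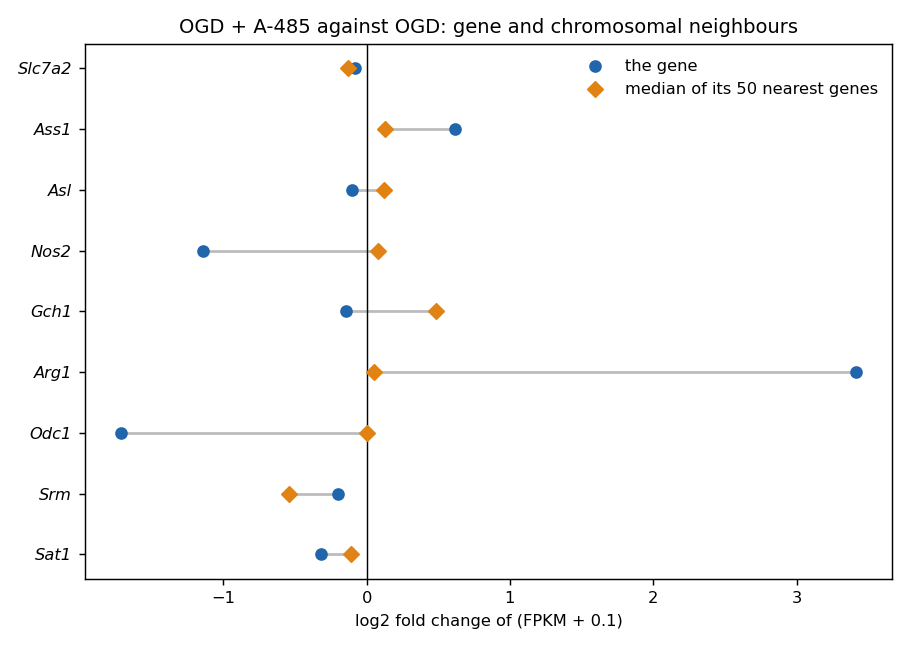
Log2 fold change with A-485 against OGD of the 9 of the 10 genes that were tested (circles) and the median of the 50 nearest expressed genes on the chromosome (diamonds). Among these 9, the neighbours of Gch1 (0.49) and Srm (-0.54) lie farthest from 0.

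Genes most like Nos2 and Arg1 in pattern were sought among 11890 genes by the root mean square difference of centred log2(FPKM + 0.1) over the 9 libraries. Nearest to Nos2 were Mpp2 (0.16 log2 units), Echdc3 (0.18) and Lims2 (0.22). Lims2, for example, had means of 8.15 ± 0.880, 32.0 ± 1.21 and 14.1 ± 0.484 FPKM in control, OGD and OGD + A-485 (SD, n = 3). No gene came as close to Arg1, for which the nearest were Abcb1a (1.14), Clec12a (1.14) and Pkdcc (1.19). The distance also grows with the size of a gene's changes, which were larger for Arg1 than for Nos2. Log2 fold changes of the 3 genes with A-485 were 4.87, 3.13 and 4.88, against 3.41 for Arg1. With OGD they were 1.42 to 1.97, against 4.23. The pseudocount of 0.1 exceeded the control means of these 3 genes and held their values down, so the sizes cannot be set against those of Arg1. Their means were at most 0.0509 FPKM in control and 0.492 with OGD, so they reached the mean of 1 FPKM required for the search only through the libraries with A-485. The libraries form 3 groups, so this likeness mostly describes group means.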

How the data were processed

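The libraries were assigned to groups by their titles. The authors deposited FPKM for 54532 genes. As the methods of the study describe, reads with adapter, N bases or low quality were discarded, featureCounts counted the rest per gene, and FPKM followed from count and length. The labels name GRCm38 (mm10), and the aligner is not given in the sources used here. All 10 genes have the same coordinates in GENCODE M21. Multiplying FPKM by length and by a divisor of the library returned whole reads (within 0.01) for 100% of values, which gave the reads quoted. That divisor already includes median-of-ratios scaling.

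Values were taken as log2(FPKM + 0.1), and limma 3.58.1 (R 4.3.3) was run on 16123 genes whose mean reached 0.2 FPKM, in 1 fit of all 9 libraries with a trended prior variance. P-values were adjusted by Benjamini-Hochberg over all these genes. The study used DESeq2, a count test that was not run on FPKM. The limma step was tested on simulated data. No replicates agreed within counting noise (chi-square over degrees of freedom 2.80 to 5.73).

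The 10 genes and all lists were chosen with earlier results of these data known. Named are the 10 genes, genes of the pathway list that were called at either step, and the 3 nearest in pattern to Nos2 and to Arg1. Some genes of the lists are counted but not reported here by name. Pathway genes named without a call, and Gm36172, were chosen after their values were seen. Alternatives were no filter, a filter at a mean of 1 FPKM, a pseudocount of 1 or 0.01, quantile normalization, scaling to total FPKM, a fit of the compared groups alone, a replicate block, no variance trend, limma-voom for recovered reads, a call at an adjusted p-value of 0.05, subtraction of the neighbours' median, and each library left out. Python 3.11.15, pandas 2.3.3 and matplotlib 3.10.9 served for the other steps.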

Additional observations from a re-analysis of the deposited data

How the results depend on the processing

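Under every alternative run, Nos2, Arg1 and Odc1 kept their direction and their side of the thresholds in all 3 comparisons. With A-485 against OGD the log2 fold change was -1.32 to -1.10 for Nos2, 3.30 to 3.50 for Arg1 and -1.90 to -1.67 for Odc1. With OGD against control it went as low as 2.93 for Arg1 and 0.53 for Ass1, both with a pseudocount of 1. Direction turned for 2 differences that had not been called, when the median of the neighbours was subtracted: Slc7a2 (0.044) and Srm (0.34) with A-485 against OGD. In that setting Gch1 was called lower with A-485 (-0.63), and against control the calls of Gch1 (0.021) and Srm (-0.38) in OGD + A-485 were lost. The call of Gch1 against control was also lost with a pseudocount of 1 (0.49) and with scaling to total FPKM (0.41), where Sat1 was called lower (-0.54). Ass1 was called higher with A-485 by limma-voom (0.68), which gave 2 of the genes higher instead of 1, as did a call at an adjusted p-value of 0.05 (2). With each library left out, Ass1 was 0.41 to 0.81 with A-485, and 1 to 2 of the genes were called higher. Scaling to total FPKM moved the median of all genes to -0.13 for OGD + A-485 against control, and 4 genes of the pathway list were then called higher with A-485 against OGD and 4 against control, in place of 7 and 7. The share of higher calls among all calls went from 47.7% to 36.9% with A-485 against OGD, and from 50.6% to 36.2% against control. With a pseudocount of 0.1 in the ratio, Arg1 was 72.4% of arginase FPKM in control and 98.7% with OGD. Total FPKM, by which the scaling divides, was 286563 to 293152 in control, 300239 to 306269 with OGD and 316495 to 333018 with OGD + A-485. Why it differed between groups was not tested, nor was the cause of the other shifts.

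With the replicate block, no call of the 9 genes changed, and Nos2 had log2 fold changes of 2.40 with OGD and -1.14 with A-485. Libraries with the same number showed no sign of deviating together (correlations across genes -0.12 to 0.07 over 9 pairs, and -0.09 to 0.13 over 18 other pairs). In both other groups at once, 0 of 9 libraries were closest to their own number. Replicate 2 of OGD and replicate 2 of OGD + A-485 were nevertheless closest to each other (0.07). With 3 libraries per group, these correlations cannot settle whether the numbers mark pairs. All-gene calls with OGD were 3288 with the block and 3384 without. Arg2 could be tested only with no filter (log2 fold change -0.68 with OGD, adjusted p = 0.421, and 0.40 with A-485, adjusted p = 0.629, limma), and a minimum mean of 1 FPKM left Ass1 out. Depth limits Arg2, Ass1, Arg1 in control and Gchfr with A-485.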

Other observations

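The noncoding gene Gm36172 starts 135 bases from the start of Arg1 on the opposite strand and is annotated as sharing a bidirectional promoter with it. It was singled out after its values were seen. Gm36172 measured 0.104, 0.777 and 0.683 FPKM in the control libraries, 2.72, 2.12 and 3.34 in those with OGD alone and 5.30, 7.53 and 7.77 in those with A-485, on 1 to 86 reads per library. The groups did not overlap. With OGD it rose by 2.42 on the log2 scale (adjusted p = 0.00373, limma), and with A-485 the difference of 1.30 was not called (adjusted p = 0.0571, limma). Inside Odc1 the small nucleolar RNA Gm22748 lies on the same strand, listed at 5.10 to 33.3 FPKM.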
